A study of Mus musculus with 12 samples.

Results

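Genes of potassium, calcium and sodium channels were described in islet RNA of Rip1Tag2 mice, aged 8 weeks and on a C57BL/6 background, in which beta cells carry the SV40 T antigen under an insulin promoter. Rows of the array table whose only gene symbol began with Kcn, Cacn or Scn followed by a digit were taken, the inward rectifier genes Kcnj8 and Kcnj11 were left out, and the brightest transcript cluster was used for each gene. This gave 125 of the 19938 genes with a single symbol. Angiogenic islets (6 arrays) were compared with non angiogenic islets (6 arrays). Each Affymetrix mouse gene array holds RNA of a pool of islets, and the islets had been sorted by their appearance. All pools came from transgenic mice of the same age, so no islets of normal mice are among them. The number of mice and islets behind a pool is not given, and whether the arrays of a group came from separate pools is not stated. The study's legends speak of 2 profiling experiments, without saying which arrays belong to which. The p-values therefore measure only how these arrays vary, which may be partly technical. Levels are log2 values after RMA, and a difference is always angiogenic minus non angiogenic. Signals of different probe sets are not RNA amounts that can be set against each other, and brightness is used here only to group genes. As whole islets were measured, fewer cells of a type and less RNA per cell cannot be told apart.

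Ion channels set the membrane potential of a cell and couple it to calcium entry. In beta cells, closure of potassium channels upon glucose uptake depolarizes the membrane, voltage-gated calcium channels then open, and the calcium that enters triggers the release of insulin. Voltage-gated and calcium-activated potassium channels end each action potential, 2-pore domain channels carry a background leak, and sodium channels contribute to the upstroke. Pore subunits form the channel, while auxiliary subunits change its trafficking and gating. Smooth muscle, endothelial, immune and glial cells of an islet use channels of their own.

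Only 4 of the 125 genes passed the test at an adjusted p under 0.05 from limma. Kcne3 and Kcnk9 were higher in angiogenic islets (2 of 125, against 3.55% of all genes), and Kcng3 and Kcnn3 were lower (2 of 125, against 0.948% of all genes). In either direction this was 3.2% of the channel genes, against 4.5% of all genes. Before adjustment, limma gave 10 genes that were higher at a p under 0.05 (7.76% of all genes were) and 16 that were lower (6.59%). An unpaired t-test gave 10 higher (7.67% of all genes) and 12 lower (6.95%) before adjustment. After it, 2 were higher (2.94%) and none lower (0.903%). The methods name this t-test and the Mann Whitney U test for comparing 2 groups, and BRB-ArrayTools for selecting the deregulated genes. The median log2 difference was -0.03 over the channel genes and -0.02 over all genes, and 69.6% of the channel genes and 59.9% of all genes had a negative difference. This share depended on the arrays. Replicates 1 to 3 gave 76% for channel genes against 60.7% for all genes, and replicates 4 to 6 gave 50.4% against 52.4%. The median spread between arrays of a group was also close, with an SD of 0.126 for channel genes and 0.12 for all genes.

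The sequences before the annotated starts of 3 of the 4 genes that passed are shown because they are where their promoters lie, and Kcnk9 has no entry in the table used. The RefSeq table of GRCm38.p6 held promoters for 96 of the 125 genes, among them Kcne3 (2 starts), Kcng3 and Kcnn3. Each run is the 250 bases before a start, read 5′ to 3′ on the strand of the gene. Capitals mark matches on either strand of a GC box, spelled GGGCGG, and of the CCAAT box, which is spelled as it is named. The TATA box was searched as TATAAA. The AP-1 site was searched as TGANTCA, where N is any base, and a match to it is in capitals too. No matches overlapped here.
Kcne3, first start, chr7:100176420-100176669, plus strand: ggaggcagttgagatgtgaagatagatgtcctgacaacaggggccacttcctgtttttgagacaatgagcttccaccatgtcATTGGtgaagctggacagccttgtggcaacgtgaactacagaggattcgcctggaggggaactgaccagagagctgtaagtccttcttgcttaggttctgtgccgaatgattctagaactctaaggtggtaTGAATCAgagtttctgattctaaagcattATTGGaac
Kcne3, second start, chr7:100178433-100178682, plus strand: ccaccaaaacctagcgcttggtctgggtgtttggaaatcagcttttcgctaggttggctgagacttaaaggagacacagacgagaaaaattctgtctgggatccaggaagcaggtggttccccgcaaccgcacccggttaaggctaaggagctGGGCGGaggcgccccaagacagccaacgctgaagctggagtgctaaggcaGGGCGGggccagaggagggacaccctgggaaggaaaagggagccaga
Kcng3, chr17:83631896-83632145, minus strand: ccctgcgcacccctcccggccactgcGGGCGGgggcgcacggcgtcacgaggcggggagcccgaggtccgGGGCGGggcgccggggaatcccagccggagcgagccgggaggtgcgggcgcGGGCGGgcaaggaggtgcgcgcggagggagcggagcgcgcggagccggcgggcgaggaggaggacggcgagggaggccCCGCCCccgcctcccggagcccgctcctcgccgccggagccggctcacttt
Kcnn3, chr3:89519914-89520163, plus strand: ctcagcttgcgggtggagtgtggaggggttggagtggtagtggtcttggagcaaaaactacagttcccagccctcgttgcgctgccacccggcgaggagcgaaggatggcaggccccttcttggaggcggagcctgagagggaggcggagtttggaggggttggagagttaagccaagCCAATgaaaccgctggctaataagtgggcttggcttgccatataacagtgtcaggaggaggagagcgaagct

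The windows differed in base composition. The window of Kcng3 had a GC content of 82.4% and 41 CpG dinucleotides, that of Kcnn3 58.8% and 10, and those of Kcne3 46.8% and 3 at the first start and 58% and 10 at the second. Over all 32851 promoters of the table the median was 52.4% and 6 CpG, and over the 131 promoters of channel genes 58% and 8. A GC box was found 4 times before Kcng3 and 2 times before the second start of Kcne3, and 32.7% of all promoters held it. The AP-1 search pattern, which allows any base in the middle, matched once, as TGAATCA before the first start of Kcne3. It matched in 6.75% of all promoters. A CCAAT box was present before Kcnn3 and 2 times before the first start of Kcne3 (33.8% of all promoters), and the TATA box in none of the 4 windows (12.4% of all promoters). These are matches of letters and do not show that a factor binds there.

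Kcne3, which encodes a small membrane protein that assembles with potassium channel pores such as that of Kcnq1, had the largest difference of the 125 genes. Its log2 level ran from 5.92 to 6.33 with a median of 6.03 in non angiogenic islets, and from 6.60 to 7.23 with a median of 7.04 in angiogenic islets. The non angiogenic mean of 6.09 lay below 6.19, the lower quartile of the mean levels of all genes. All 6 angiogenic arrays lay above all 6 non angiogenic arrays, and within the angiogenic group replicates 1 and 3 were the lowest. The difference was 0.88 (standard error, SE, 0.12, 1.84-fold, limma, adjusted p = 2.83e-04). Replicates 1 to 3 gave 0.77 and replicates 4 to 6 gave 0.99, and the call held in all 12 fits that left out an array, with adjusted p from 9.72e-05 to 0.0011. Kcnq1, the pore partner named above, had a difference of 0.02 (95% interval -0.12 to 0.16).

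Kcnk9 encodes an acid-sensitive leak channel of the 2-pore domain family. Non angiogenic arrays ran from 7.35 to 7.76 with a median of 7.60, and angiogenic arrays from 7.71 to 8.42 with a median of 8.23. Of the angiogenic arrays 5 lay above all non angiogenic arrays, while angiogenic replicate 2 lay within their range. The difference was 0.57 (SE 0.12, 1.48-fold, limma, adjusted p = 0.0094), and the call held in all 12 fits without an array. The values by set of arrays were 0.31 in replicates 1 to 3, where it did not pass (adjusted p = 0.33), and 0.82 in replicates 4 to 6 (adjusted p = 0.0012). The interaction of group and set was 0.51 on the log2 scale with an unadjusted p = 0.018 and an adjusted p = 0.74 from limma.

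Kcng3 encodes a subunit that forms no channel alone and changes the gating of voltage-gated pores it joins. Its level ran from 9.09 to 9.66 with a median of 9.39 in non angiogenic islets and from 8.69 to 9.29 with a median of 8.94 in angiogenic islets. Of the angiogenic arrays 5 lay below all non angiogenic arrays, and replicate 1 reached into their range. Kcng3 fell by 0.45 on the log2 scale (SE 0.11, adjusted p = 0.024 from limma), a level 1.36-fold lower. In replicates 1 to 3 the difference was -0.41 (adjusted p = 0.12) and in replicates 4 to 6 it was -0.48 (adjusted p = 0.045). The call was lost in 5 of 12 fits, without angiogenic replicate 2 (adjusted p = 0.053), 5 (0.060) or 6 (0.065) and without non angiogenic replicate 1 (0.053) or 2 (0.054).

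Kcnn3 encodes a small-conductance channel that opens with intracellular calcium and damps firing. Non angiogenic arrays ran from 9.04 to 9.59 with a median of 9.26, and angiogenic arrays from 8.72 to 9.13 with a median of 8.90. Again 5 of 6 angiogenic arrays lay below all non angiogenic arrays. Kcnn3 fell by 0.39 on the log2 scale (SE 0.09, adjusted p = 0.027 from limma), a level 1.31-fold lower. It was lower within both sets of arrays, by a difference of -0.42 in replicates 1 to 3 (adjusted p = 0.029) and of -0.35 in replicates 4 to 6 (adjusted p = 0.020). The call was lost in 5 of 12 fits, without angiogenic replicate 4 (adjusted p = 0.069), 5 (0.072) or 6 (0.065) and without non angiogenic replicate 2 (0.063) or 3 (0.062), and after quantile normalization (adjusted p = 0.067). Without angiogenic replicate 5 or 6 or non angiogenic replicate 2, no channel gene was lower at the threshold.

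**Figure D1:**
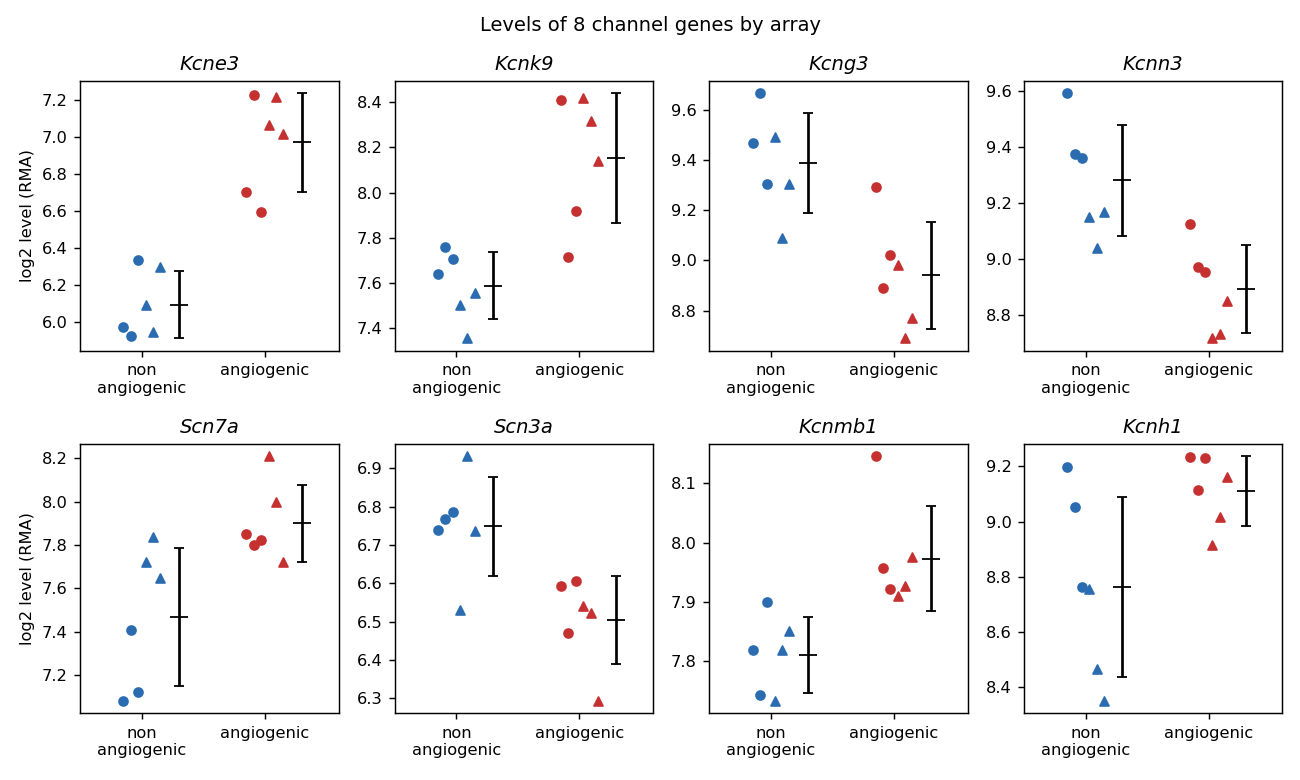
Log2 levels of 8 channel genes, 1 point per array, with non angiogenic islets in blue and angiogenic islets in red, circles for replicates 1 to 3, triangles for replicates 4 to 6, and the mean and SD of 6 arrays in black. Kcne3 and Kcnmb1 show no overlap between the groups, and each axis covers only the range of its gene.

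The arrays fell into sets that the labels do not describe. The sets were chosen because the arrays split that way, so the share of genes that differ between them is partly fixed by this choice. Replicates 1 to 3 and replicates 4 to 6 of both groups differed in 7349 genes (36.9%) with group in the model, and in 46 of the 125 channel genes, of which 42 were lower in replicates 4 to 6 (18.8% of all genes were) and 4 were higher (18%). Each set holds 3 arrays of each group. With the set as a block, 4 channel genes were higher (against 5.88% of all genes) and 6 were lower (against 2.74%) in angiogenic islets, or 8% in either direction against 8.62% of all genes. In replicates 1 to 3 alone 2 channel genes were higher (2.37% of all genes) and 1 lower (0.331%), and in replicates 4 to 6 alone 3 were higher (3.11%) and 2 lower (0.737%). The 6 genes added by the block were Kcnh1 and Scn7a among the higher, and Kcnk3, Kcnj6, Scn3a and Scn8a among the lower. No channel gene had an interaction of group and set at an adjusted p under 0.05 from limma (1 of all genes had, or 0.00502%), and 5 had one at an unadjusted p under 0.05, against 6.41% of all genes.

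**Figure D2:**
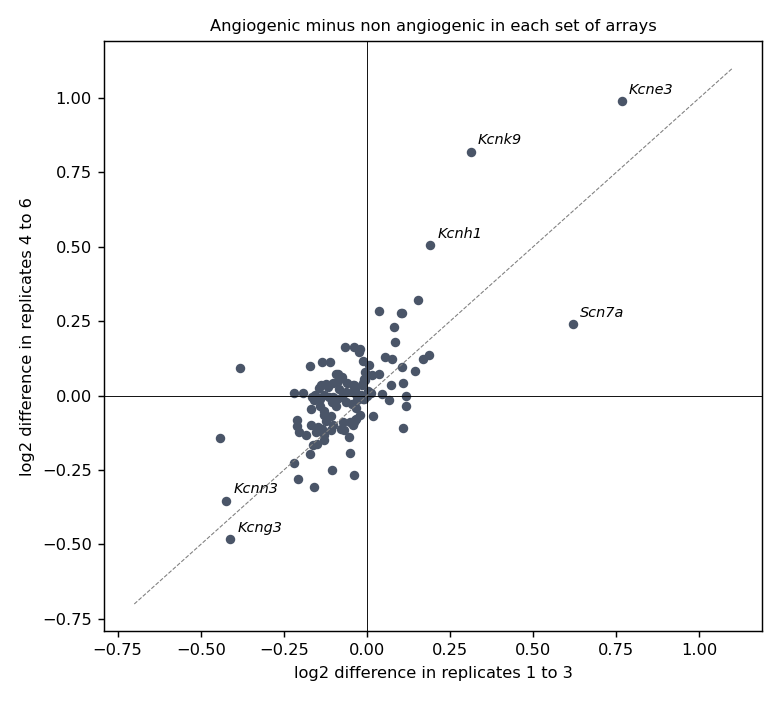
Log2 difference between angiogenic and non angiogenic islets in replicates 1 to 3 (x axis) and in replicates 4 to 6 (y axis), 1 point for each of the 125 channel genes, with a dashed line where the values are equal. Kcne3, Kcnk9, Kcng3 and Kcnn3 lie away from zero in the same direction in both sets. They were called from these same arrays, so this is no separate support. The same sign in both sets was seen for 81 genes, without a share of all genes to set beside it.

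Among the genes added with the block, Scn7a encodes a sodium channel relative that senses the sodium level of the surrounding fluid. Its level ran from 7.08 to 7.84 with a median of 7.53 in non angiogenic islets and from 7.72 to 8.21 with a median of 7.84 in angiogenic islets. The groups overlapped over all arrays. The difference was 0.43 (SE 0.13, adjusted p = 0.084, and 0.0061 with the block), and it was 0.62 in replicates 1 to 3 (adjusted p = 0.0055) and 0.24 in replicates 4 to 6 (adjusted p = 0.36). Without non angiogenic replicate 5 it passed (adjusted p = 0.037). Kcnh1, which encodes a slowly gating voltage-dependent potassium channel, ran from 8.35 to 9.20 with a median of 8.76 in non angiogenic islets and from 8.91 to 9.23 with a median of 9.14 in angiogenic islets. The low non angiogenic arrays were those of replicates 5 and 6. Its difference was 0.35 (SE 0.12, adjusted p = 0.17, 0.022 with the block, and 0.042 without non angiogenic replicate 1). By set of arrays, replicates 1 to 3 gave 0.19 (adjusted p = 0.41) and replicates 4 to 6 gave 0.51 (adjusted p = 0.033).

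Most channel genes gave a weak signal. Of the 125, 33 lay in the dimmest quartile of all genes, 55 in the next brighter, 24 in the one after and 13 in the brightest, so that 70.4% were below the median of all genes. In the dimmest quartile no channel gene passed the test with limma, and the median difference was -0.02 against -0.03 for all genes of that quartile. At an unadjusted p under 0.05, 5 of these 33 passed, beside 5.1% of all genes of that quartile. The 13 brightest were Kcnk16, Cacna2d1, Kcnip3, Cacna1c, Kcnmb2, Cacna1d, Cacna1a, Cacng4, Kcnip1, Kcnma1, Kcnh2, Scn9a and Kcnk1. None of them passed, and the unadjusted p was under 0.05 for Cacna2d1 and Kcnmb2, both with a negative difference (2 of 13, beside 7.94% of all genes of that quartile). Their differences were negative in 11 of 13, with a median of -0.10, counting Kcnip3 at -4.90e-04, while over all genes of the brightest quartile 54% were negative and the median was -0.01. Within replicates 1 to 3 the number was 11 of 13 as well, beside 46.7% of all genes of that quartile, and within replicates 4 to 6 also 11 of 13, beside 61.5%. Of the 13 genes 10 were negative in both. After median centring and after quantile normalization 11 of 13 were negative too. All these counts come from the same arrays, so they are no separate support. No test of the share of negative differences was made.

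**Figure D3:**
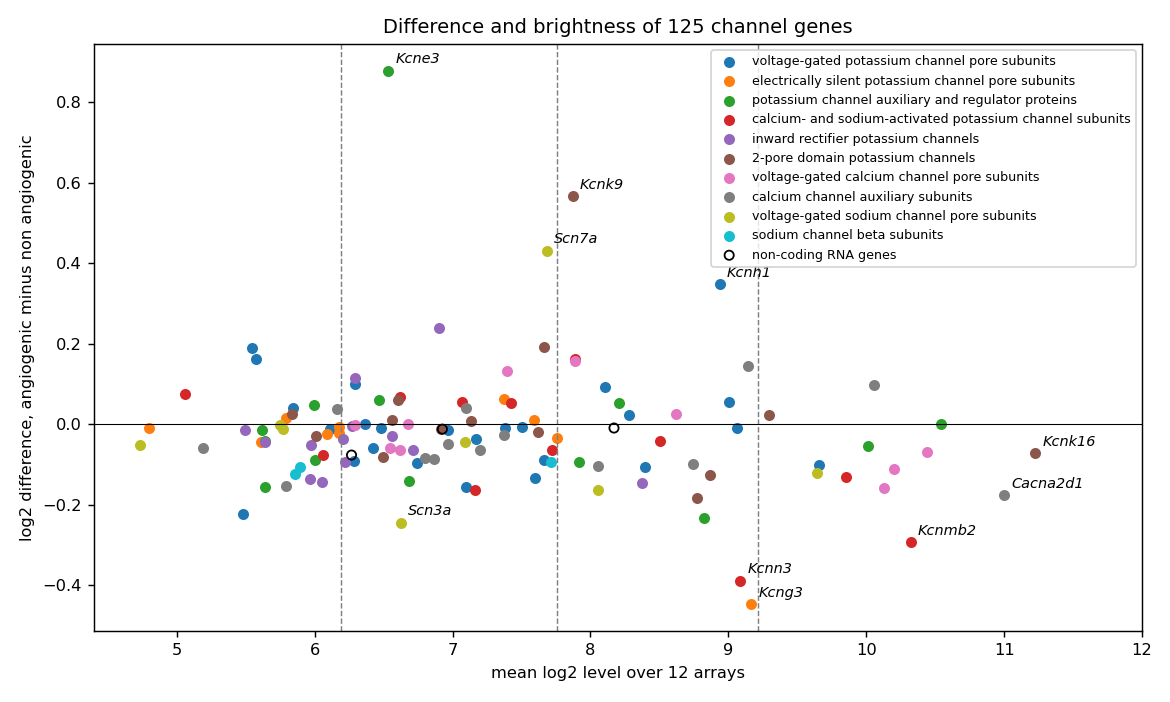
Mean log2 level over the 12 arrays (x axis) and log2 difference between angiogenic and non angiogenic islets (y axis) of the 125 channel genes, colored by class, with dashed lines at the quartiles of all genes. The 4 genes that passed the test lie between the outer lines, and 11 of the 13 genes right of the last line lie below zero, Kcnip3 by less than the plot resolves.

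Among the 25 voltage-gated potassium channel pore genes, none passed the test, the median difference was -0.01, and the differences ran from -0.22 to 0.35. At an unadjusted p under 0.05, Kcnh1 and Kcnc2 had positive and Kcna1 and Kcnh7 negative differences. Kcnh2, which encodes a delayed rectifier best known from the heart, ran from 9.53 to 9.97 in non angiogenic and from 9.44 to 9.78 in angiogenic islets, with medians of 9.69 and 9.61. The ranges overlapped, and the difference was -0.10 (95% interval -0.26 to 0.05). Kcnb2, a delayed rectifier gene related to the main repolarizing channel of rodent beta cells, had a difference of -0.01 (95% interval -0.15 to 0.13). For Kcna3, a channel gene of lymphocytes and macrophages, it was 0.09 (95% interval -0.06 to 0.25), and for Kcna5, known from vascular smooth muscle, 0.04 (95% interval -0.08 to 0.17). Of the 10 electrically silent subunits, Kcng3 was lower and the other 9 did not pass, with Kcng1 at -0.04 (95% interval -0.20 to 0.13).

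Of the 13 auxiliary and regulator genes of potassium channels, Kcne3 was higher and 12 did not pass. Kcnip3 and Kcnip1 encode calcium-binding proteins that attach to rapidly inactivating pores. Kcnip3 ran from 10.15 to 10.72 with a median of 10.60 in non angiogenic and from 10.36 to 10.75 with a median of 10.54 in angiogenic islets. The group means were nearly equal, with a difference of -4.90e-04 (95% interval -0.21 to 0.20) that came from 0.11 in replicates 1 to 3 against -0.11 in replicates 4 to 6. Kcnip1 had a difference of -0.06 (95% interval -0.18 to 0.07) and Kcnab2, which encodes a cytoplasmic beta subunit, of 0.05 (95% interval -0.06 to 0.16). Kcne4, a relative of Kcne3, was dim, with levels from 5.83 to 6.11 and from 5.86 to 6.14 in the groups and a difference of 0.05 (95% interval -0.08 to 0.18).

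Calcium- and sodium-activated potassium channel subunits held the second gene that was lower, Kcnn3, and none of the other 11 passed. Kcnma1 encodes the pore of the large-conductance channel, which opens with voltage and calcium. Its level ran from 9.76 to 10.16 with a median of 9.89 in non angiogenic and from 9.61 to 10.13 with a median of 9.74 in angiogenic islets. The difference was -0.13 (95% interval -0.32 to 0.06), and 0.04 at a second and dimmer cluster of the gene. Its partner subunits had differences of opposite sign. Kcnmb2, an inactivating beta subunit, had a difference of -0.29 (SE 0.14, adjusted p = 0.35), with arrays from 10.05 to 10.81 and from 9.82 to 10.52. Kcnmb1, the beta subunit of smooth muscle, ran from 7.73 to 7.90 with a median of 7.82 in non angiogenic and from 7.91 to 8.15 with a median of 7.94 in angiogenic islets. It had no overlap between the groups, as did Kcne3 and no other channel gene (2 of 125 higher against 2.85% of all genes, and 0 lower against 0.923%). Its difference was small, 0.16 (SE 0.05), and did not pass (adjusted p = 0.11, range 0.091 to 0.20 over fits without an array). Kcnn4, the intermediate-conductance channel gene, had a difference of 0.06 (95% interval -0.07 to 0.18).

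Of the 13 inward rectifier genes none passed, and 11 had a negative difference, beside 59.9% of all genes. All but Kcnj6 were below the median level of all genes. The negative share of all genes was 67.6% in the dimmest quartile and 61.6% in the next. In replicates 4 to 6 alone, Kcnj1, Kcnj3, Kcnj13, Kcnj14 and Kcnj15 of these 11 had a positive difference. Kcnj6, which encodes a channel opened by G proteins, was the brightest. Its arrays ran from 8.30 to 8.60 in non angiogenic and from 8.20 to 8.37 in angiogenic islets, with medians of 8.46 and 8.30. The angiogenic arrays lay in the lower part of the range, with 3 of 6 below all others, and the difference was -0.15 (SE 0.06, adjusted p = 0.27, and 0.043 with the block). Kcnj10, a potassium buffering channel gene of glia, had the largest difference of the class, 0.24 (SE 0.08, adjusted p = 0.16). Its angiogenic arrays ran from 6.82 to 7.31, with replicates 2 and 4 highest, and its non angiogenic arrays from 6.66 to 6.95. Kcnj2, the classical inward rectifier gene of muscle and endothelium, had a difference of 0.11 (95% interval -0.07 to 0.30), and Kcnj16 of -0.04 (95% interval -0.17 to 0.09).

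Beside Kcnk9, none of the 14 genes of 2-pore domain channels passed, and 7 differences were positive and 7 negative. Kcnk16, a leak channel gene known for its expression in the pancreas, was the brightest channel gene of the list. It ran from 11.05 to 11.47 with a median of 11.27 in non angiogenic and from 11.03 to 11.40 with a median of 11.17 in angiogenic islets. The ranges overlapped, with a difference of -0.07 (95% interval -0.25 to 0.11). Kcnk3, the acid-sensitive relative of Kcnk9, had the opposite sign. Its arrays ran from 8.61 to 9.01 and from 8.51 to 8.84 in the groups, and the difference was -0.18 (SE 0.08, adjusted p = 0.30, and 0.029 with the block). Kcnk6, described in vascular smooth muscle and macrophages, had 5 of 6 angiogenic arrays above all non angiogenic arrays but a difference of only 0.19 (SE 0.07, adjusted p = 0.15). For Kcnk1 the difference was 0.02 (95% interval -0.14 to 0.18).

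**Figure D4:**
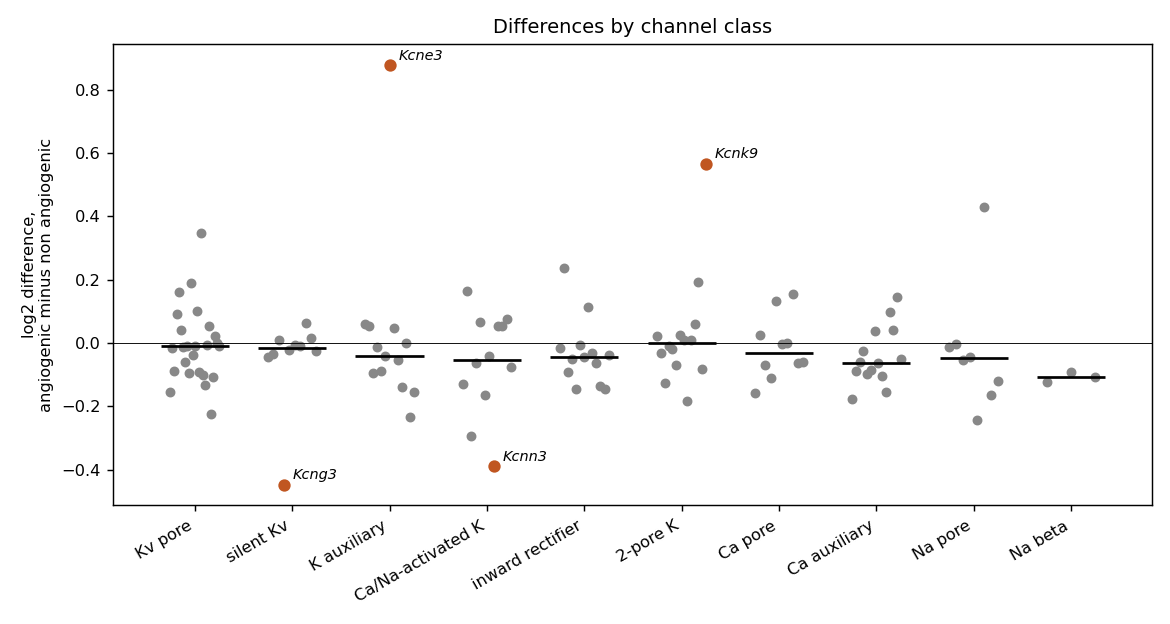
Log2 difference between angiogenic and non angiogenic islets of each gene by channel class, with black lines at the class medians and orange points for the 4 genes with an adjusted p under 0.05 from limma. The class medians lie between -0.11 and 0, and the 4 genes belong to 4 different potassium channel classes.

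No calcium channel gene passed the test, among 10 pore and 14 auxiliary genes, which were classed by their symbols alone. The unadjusted p was under 0.05 for 2 positive and 2 negative differences. Cacna1c and Cacna1d encode the L-type pores through which calcium enters beta cells, and Cacna1a the pore of the P/Q-type. Cacna1c ran from 10.20 to 10.67 with a median of 10.51 in non angiogenic and from 10.16 to 10.64 with a median of 10.42 in angiogenic islets, and Cacna1d had medians of 10.25 and 10.12. Their arrays overlapped widely, and the differences were -0.07 (95% interval -0.29 to 0.15) and -0.11 (95% interval -0.29 to 0.06). Cacna1a had a difference of -0.16 (95% interval -0.37 to 0.05). All 3 also differed between the sets of arrays, with values of -0.35, -0.23 and -0.33 for replicates 4 to 6 minus replicates 1 to 3. The T-type gene Cacna1h, found in smooth muscle among other cells, had a positive difference of 0.16 (SE 0.06, adjusted p = 0.19). Its non angiogenic arrays ran from 7.60 to 7.95 and its angiogenic arrays from 7.92 to 8.05.

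The auxiliary subunit gene Cacna2d1, whose protein brings calcium channel pores to the surface, ran from 10.80 to 11.26 with a median of 11.10 in non angiogenic and from 10.76 to 11.06 with a median of 10.91 in angiogenic islets. The groups overlapped, and the difference was -0.18 (SE 0.08, adjusted p = 0.29). A second cluster of the gene gave -0.17. Cacng4, of the gamma subunit family, had a difference of 0.10 (95% interval -0.03 to 0.22), and Cacnb2, a cytoplasmic beta subunit, of -0.08 (95% interval -0.20 to 0.03).

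Sodium channel genes did not pass the test either, with 10 of 11 differences negative (59.9% of all genes) and a median of -0.09. Most were below the median level of all genes. There the negative share of all genes was 67.6% in the dimmest quartile and 61.6% in the next. In replicates 4 to 6 alone, Scn3b, Scn10a and Scn11a of these 10 had positive differences of 0.0079, 0.071 and 0.037. Scn3a encodes a sodium channel pore of beta cells and of embryonic neurons. It ran from 6.53 to 6.93 with a median of 6.75 in non angiogenic and from 6.29 to 6.61 with a median of 6.53 in angiogenic islets. The overlap was due to non angiogenic replicate 4, and without this array the gene passed (adjusted p = 0.017 from limma). Over all arrays the difference was -0.24 (SE 0.07, adjusted p = 0.063, 0.028 with the block and 0.032 with array weights). Scn9a, the brightest sodium channel gene, had medians of 9.70 and 9.58 and a difference of -0.12 (95% interval -0.26 to 0.01), and -0.24 at its second cluster. Scn8a had a difference of -0.16 (SE 0.06, adjusted p = 0.23, and 0.036 with the block). The beta subunit genes Scn2b, Scn3b and Scn4b had differences of -0.12, -0.09 and -0.11, with adjusted p from 0.33 to 0.70.

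Scn2a, a sodium channel pore gene chosen here after its values were seen, was represented by 14 transcript clusters with levels from 4.34 to 7.09. At the brightest cluster the difference was -0.04 (SE 0.07), but all 14 clusters had a negative difference, down to -0.48. The mean of the clusters gave -0.19 (SE 0.05, adjusted p = 0.066 from limma). The clusters belong to a single gene and are not replicates. Of the other 6 genes with several clusters, Kcnma1 alone had clusters of opposite sign.

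Channel genes listed by where they are known to act had differences mostly of opposite sign, and none of those listed passed the test. Of 18 channel genes known from beta cells, 13 had a row, and 11 of these had a negative difference, with a median of -0.12 and a range from -0.24 to 0.06. None passed, and with the block of array sets 3 were lower (Kcnk3, Scn3a and Scn8a). Of 11 channel genes known from vessel, immune or glial cells, 10 had a row, and 9 of these had a positive difference, with a median of 0.10 and a range from -0.04 to 0.24. None of these passed with or without the block, and Scn7a, which passed with it, was not on this list. Kcne3, Kcnk9, Kcng3 and Kcnn3, which passed, are on neither list, and the counts depend on which genes were listed. Both lists were written with earlier results of these arrays known, and their medians are descriptions beside the median of -0.02 over all genes.

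**Figure D5:**
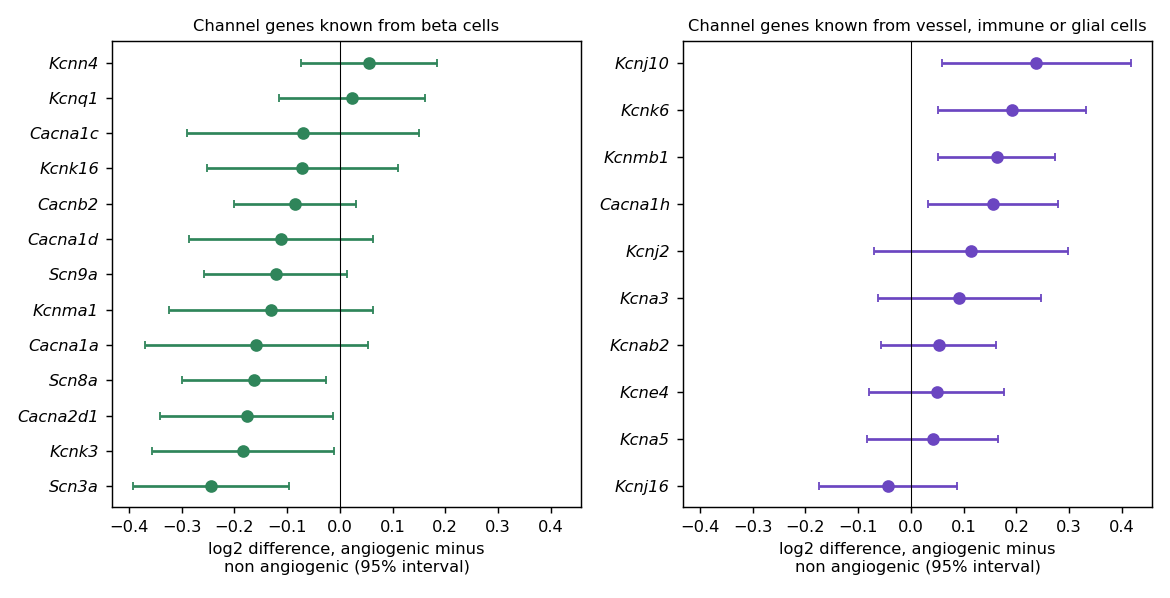
Log2 difference between angiogenic and non angiogenic islets with its 95% interval from limma, for 13 channel genes known from beta cells (left) and 10 known from vessel, immune or glial cells (right). Of the left genes 11 lie below zero and of the right genes 9 lie above, while no gene shown passed the test after adjustment over all genes.

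Markers of the cells in an islet differed between the groups beside these genes. At an adjusted p under 0.05 from limma, 14 of 16 endothelial, 12 of 14 pericyte and smooth muscle, 10 of 11 fibroblast and 10 of 12 macrophage markers were higher and 0 lower in angiogenic islets. The mean log2 level of the pericyte and smooth muscle markers lay between 7.95 and 8.10 in non angiogenic and between 8.52 and 8.85 in angiogenic arrays, that of the endothelial markers between 8.88 and 9.06 and between 9.38 and 9.57, and that of the macrophage markers between 8.09 and 8.31 and between 8.48 and 8.82. Their median differences were 0.64, 0.46 and 0.45, and that of the fibroblast markers was 0.94, larger than the 0.10 of the stromal channel genes. The lists differ in brightness. No marker of these cells lay in the dimmest quartile, but some of the stromal channel genes did, Kcnj16 among them, so the medians are not like for like. None of the 10 Schwann cell and neuron markers measured and none of the 9 lymphocyte markers passed. Of 10 beta cell markers 1 was lower, Ucn3 (not in 7 of the 12 fits without an array, with adjusted p from 0.016 to 0.068), and with the block 3 were lower, Ucn3, Nkx6-1 and Slc2a2. Of 6 markers of other endocrine cells 2 were lower with and without the block, Gcg and Sst, and 1 lymphocyte marker, Cd79a, was lower with it. Mean levels ran from 11.8 to 12.1 and from 11.8 to 11.9 for beta cells, overlapping, and from 10.5 to 10.6 and from 10.2 to 10.4 for the other endocrine cells, without overlap. Acinar markers ranged from 7.54 to 11.8 over the arrays, with 0 of 7 past the test, and none of 4 ductal markers passed. The part of these cells in the channel differences was not tested.

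Other genes of membrane excitability and ion transport were counted for comparison. Of 59 genes listed, 52 had a row, and by the adjusted p from limma 5 were higher and 1 was lower, a share of 9.62% higher against 3.55% of all genes. Their median difference was -0.02. Piezo2 and Piezo1, which encode channels opened by stretch, were 2.03-fold and 1.29-fold higher. Abcc9, the regulatory subunit of vascular ATP-sensitive potassium channels and also a pericyte marker here, was 1.43-fold higher, while Abcc8, the regulatory subunit of the beta cell channel, had a difference of -0.04 (SE 0.06). The chloride channel gene Ano1 and the ATP receptor channel gene P2rx7 were 1.27-fold and 1.17-fold higher. Scnn1b, a subunit of the epithelial sodium channel, was lower, with a difference of -0.39 and a standard error of 0.05 and no overlap between the groups.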

How the data were processed

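Total RNA of islet pools was hybridized to Affymetrix mouse gene arrays. The authors deposited log2 levels per transcript cluster, made per the labels with RMA in Affymetrix Expression Console (versions, and whether all arrays were normalized together, not given in the sources used here). RMA equalizes the arrays and compresses weak signals. The number of arrays, 6 per group, limits the precision.

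Clusters were named through the platform annotation. Of 35556, 21789 had 1 gene symbol, 1621 several and 12146 none here; the brightest cluster was kept for 999 genes with several, leaving 19938. No symbol of the 125 channel genes differed from RefSeq GRCm38.p6. Of these genes 3 are non-coding RNAs and stand in no class. Angiogenic and non angiogenic arrays were compared with limma 3.58.1 in R 4.3.3 (lmFit and eBayes, no covariates, two-sided, Benjamini-Hochberg over all genes, threshold 0.05), and the fit was tested on simulated data. Intervals are 95% and come from the moderated statistic, unadjusted.

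Members, classes and lists were chosen with earlier results of these data known. Named are every channel gene past the threshold, in each class the 2 brightest and the largest difference, and a list of genes known from beta cells or stroma, of which 6 had no row and are not analysed here. Kcna1, Kcnc2, Kcnh7 and Scn2a were named after their values were seen. The methods' t-test, variance trend, array weights, centring, quantile normalization, a filter, cluster means, replicate and set blocks, each set alone and leaving out arrays were tried.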

Additional observations from a re-analysis of the deposited data

Results flagged for a closer look

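In 10 of 82 groups of 6 arrays (41 channel genes in each group of islets), the highest or lowest array stood apart from the others by more of the range than Dixon's 95% critical value allows. Chance flags about 1 in 20 such groups, or 4.1 of 82, and the cause was not tested. In angiogenic islets these were Kcnmb1 at 8.15 and Cacnb2 at 6.57 (both replicate 1), and Kcnq1 at 8.43 and Scn3b at 7.49 (both replicate 2). In non angiogenic islets they were Kcnip3 at 10.15, Cacng4 at 9.81 and Kcnj16 at 5.90 (all replicate 1), Kcnq1 at 8.54 and Kcnip1 at 9.85 (both replicate 3), and Kcna5 at 5.60 (replicate 4). None of the 4 channel genes past the threshold was among them. For Kcnmb1 the other 5 angiogenic arrays lay between 7.91 and 7.98, still above all non angiogenic arrays.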

How the results depend on the processing

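Against 2 higher and 2 lower channel genes (708 and 189 of all genes), the methods' t-test gave 10 and 12 without adjustment (1529 and 1385 of all genes) and 2 and 0 after it. The sets of arrays as a block gave 4 and 6 (1172 and 547), and replicates 1 to 3 alone 2 and 1 (473 and 66). Leaving out an array gave 2 to 3 higher and 0 to 3 lower channel genes, and 553 to 715 higher and 110 to 178 lower of all genes. The other alternatives gave 2 to 3 higher and 2 to 3 lower channel genes, except for the block below. Equal counts need not be the same genes, as the 2 lower after quantile normalization did not include Kcnn3 (adjusted p = 0.067 from limma). The call of Kcne3 held under every alternative run, that of Kcnk9 under all but replicates 1 to 3 alone, and those of Kcng3 and Kcnn3 were lost by the methods' t-test after adjustment (adjusted p = 0.077 and 0.078). The cause was not tested.

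Same-numbered arrays of the groups had deviations that correlated at 0.03 to 0.54, with replicate 3 at 0.03, so the numbers were not taken as pairs. With the replicate block, 3 channel genes were higher and 5 lower (1058 and 449 of all genes), and 2 of 6 angiogenic arrays correlated best with their own number.

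Of all 125 channel genes the sign turned for 14 in replicates 1 to 3 alone, for 30 in replicates 4 to 6 alone and for 39 in at least 1 fit without an array, among them none that had passed. Of the 41 genes chosen by the rule on names, in replicates 1 to 3 alone Kcnab2 was at -0.011, Kcne4 at -0.067, Kcnip3 at 0.11, Kcnk1 at -0.0064 and Kcnq1 at -0.0094, and in replicates 4 to 6 alone Kcng1 was at 0.10 and Scn3b at 0.0079. Over the fits without an array the sign turned for 7 of these 41 genes, with ranges of -0.0032 to 0.065 for Kcna5, -0.053 to 0.024 for Kcnb2, -0.082 to 0.016 for Kcng1, -0.079 to 0.037 for Kcnip3, -0.069 to 0.0042 for Kcnj16, -0.025 to 0.062 for Kcnk1 and -0.0047 to 0.079 for Kcnq1. Signal limits what can be seen of the 33 channel genes in the dimmest quartile, where RMA compresses differences.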
